A study of Homo sapiens with 30 samples.

Results

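The genes described here are 36 genes of the lysosome and of autophagy, followed across vehicle and every extract and dose of a study of A549 cells. They were taken as a list of gene symbols, and each symbol matched 1 of the 60675 Ensembl identifiers in the deposited table of expected counts. All 36 were among the 17459 genes with enough counts to be tested, so no member was lost to the filter on low values. By role the list holds 2 regulators, 5 membrane proteins, 7 cathepsins, 9 glycosidases, lipid hydrolases and activators, 5 genes of the proton pump, 5 autophagy receptors and ubiquitin-like proteins, and 3 genes of autophagy initiation. A549 is a long-used human cell line grown from a lung carcinoma, and all libraries come from that single line. Treatment lasted 24 h, with an ethanol extract of 1 of 4 formulas of Korean herbal medicine at 20, 100 or 500 µg/mL, or with dimethyl sulfoxide (DMSO), the solvent, called vehicle. Each dose of Soshiho-tang and of Yijin-tang has 3 libraries, each dose of Okbyeongpung-san 2, each dose of Soyo-san 1, and vehicle 3. The labels give vehicle as 0.1% DMSO, whereas the series text has 2%. Nothing in the labels tells whether replicates came from separate cultures, so p-values measure the spread between libraries, which may be technical.

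Lysosomes are acidic compartments in which hydrolases break down proteins, glycans and lipids. Autophagy encloses cytoplasm in a double membrane and delivers it to the lysosome, with receptors such as p62 that link cargo to lipid-bound proteins of the LC3 and GABARAP families. The transcription factors TFEB and TFE3 bind E-box sequences near many lysosomal genes and are controlled mainly by where in the cell they are, through phosphorylation by mTORC1 at the lysosome surface. A messenger RNA level therefore tells nothing by itself about the activity of these factors, the acidity of the lysosome or the flow of cargo through autophagy.

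Vehicle libraries stood apart from treated ones. Treated libraries held 24560758 to 38008449 counts, against 19833106 to 22327632 in vehicle, and 13 mitochondrially encoded mRNAs took 6.22% to 9.89% of treated counts, against 10.5% to 10.9% of vehicle counts. The titles put all vehicle libraries in batch E, and replicate 3 of Okbyeongpung-san and all Soyo-san libraries in batch D; the meaning of the letters is not given. Replicate 2 of Okbyeongpung-san at 500 µg/mL also stood apart, with 38008449 counts and 9.89% mitochondrial mRNA, against 27540403 counts and 6.73% in replicate 3. This library held the highest level of all 30 for 11 members and the lowest for 3, which was not counted over all genes. The keratin genes KRT8 and KRT18 lay at 2368 to 3416 and at 2314 to 3013 TPM (a transcript's share of all transcripts, scaled by length). The other epithelial markers were far lower. KRT19 was at 30.1 to 47.9, CDH1 at 13.4 to 18.3, EPCAM at 3.89 to 6.46 and MUC1 at 3.49 to 6.05 TPM. PTPRC, which marks leukocytes, was at 0 in 27 of the 30 libraries. The leukocyte markers CD14 (1.6 to 3.9 TPM) and CD68 (6.58 to 15.1 TPM) were at 0 in none. The 7 macrophage and leukocyte markers summed to 9.24 to 22.2 TPM, most of it from CD68, itself a gene for a lysosomal membrane protein. In bulk RNA, fewer cells of a kind and less RNA per cell cannot be told apart.

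Levels per length differed widely among the members. In vehicle, SQSTM1 was highest at 629 ± 13.8 TPM (SD, n = 3 here and below in this paragraph), before CD63 at 464 ± 15.0, PSAP at 371 ± 9.24, CTSL at 237 ± 4.60, CTSD at 188 ± 3.41 and CTSB at 164 ± 3.38 TPM. The lowest were MCOLN1 at 6.87 ± 0.203, WIPI1 at 5.11 ± 0.319, CTSS at 3.79 ± 0.274 and TFEB at 2.51 ± 0.670 TPM. Several neighbours in this order did not differ beyond their spread, among them LAMP1 and ATP6AP1 (58.4 ± 0.153 and 58.2 ± 0.567 TPM), ATP6V0D1 and TFE3 (50.7 ± 0.610 and 50.2 ± 2.05 TPM), and ASAH1, LIPA and NBR1 (43.2 ± 2.08, 42.8 ± 1.38 and 42.3 ± 1.24 TPM). Together the 36 genes took 0.516% to 0.531% of all counts with Soshiho-tang at 500 µg/mL, 0.488% to 0.504% with Okbyeongpung-san at 500 µg/mL and 0.453% to 0.466% with Yijin-tang at 500 µg/mL, against 0.384% to 0.389% in vehicle. These ranges did not overlap. They are shares of unadjusted totals, of which mitochondrial mRNA took more in vehicle. SQSTM1 and PSAP have the most counts of the members and so weigh most in the sum. At 20 and 100 µg/mL the share was also above vehicle in every library, at 0.417% to 0.450% with Soshiho-tang, 0.426% to 0.468% with Yijin-tang, which overlaps its 500 µg/mL libraries, and 0.4304% to 0.442% with Okbyeongpung-san.

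At 500 µg/mL nearly all members that passed the test were higher than in vehicle, in each of the 3 replicated extracts. Calls here and below are those of edgeR's quasi-likelihood test, made where the p adjusted by Benjamini-Hochberg over all genes tested was below 0.05. With Soshiho-tang 16 members were called higher and 1 lower, where 17.2% of all genes tested were higher and 16% lower. With an offset for length and GC content 17 were higher and 4 lower, CTSH, GLA and GABARAPL1 joining ATP6V0D1. With Yijin-tang 8 were higher and 0 lower, against 8.12% and 7.56% of all genes, and with Okbyeongpung-san 11 were higher and 0 lower, against 7.19% and 7.76%. No member was lower at an unadjusted p below 0.05 with Yijin-tang or Okbyeongpung-san, and DESeq2 called 0 lower there too; with the offset Yijin-tang had 12 higher and 1 lower, ATP6V0D1, and without Okbyeongpung-san replicate 3 LAMP2 was called lower with that extract (log2 -0.22, adjusted p = 0.0176, edgeR). The median log2 fold change of the members over vehicle was 0.14 for Soshiho-tang, 0.09 for Yijin-tang and 0.16 for Okbyeongpung-san, and that of all genes was between 0.01 and 0.02. The changes were small: only CTSL and SQSTM1 with Soshiho-tang and CTSL with Okbyeongpung-san passed 1.5-fold. Leaving out vehicle replicate 2 left 5 called members for Yijin-tang. For Okbyeongpung-san, leaving out vehicle replicate 1, 2 or 3 left 5, 7 or 7, leaving out its own replicate 2 left 6, and fitting only these groups left 3. The 3 comparisons share their vehicle libraries and are not independent of each other.

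**Figure D1:**
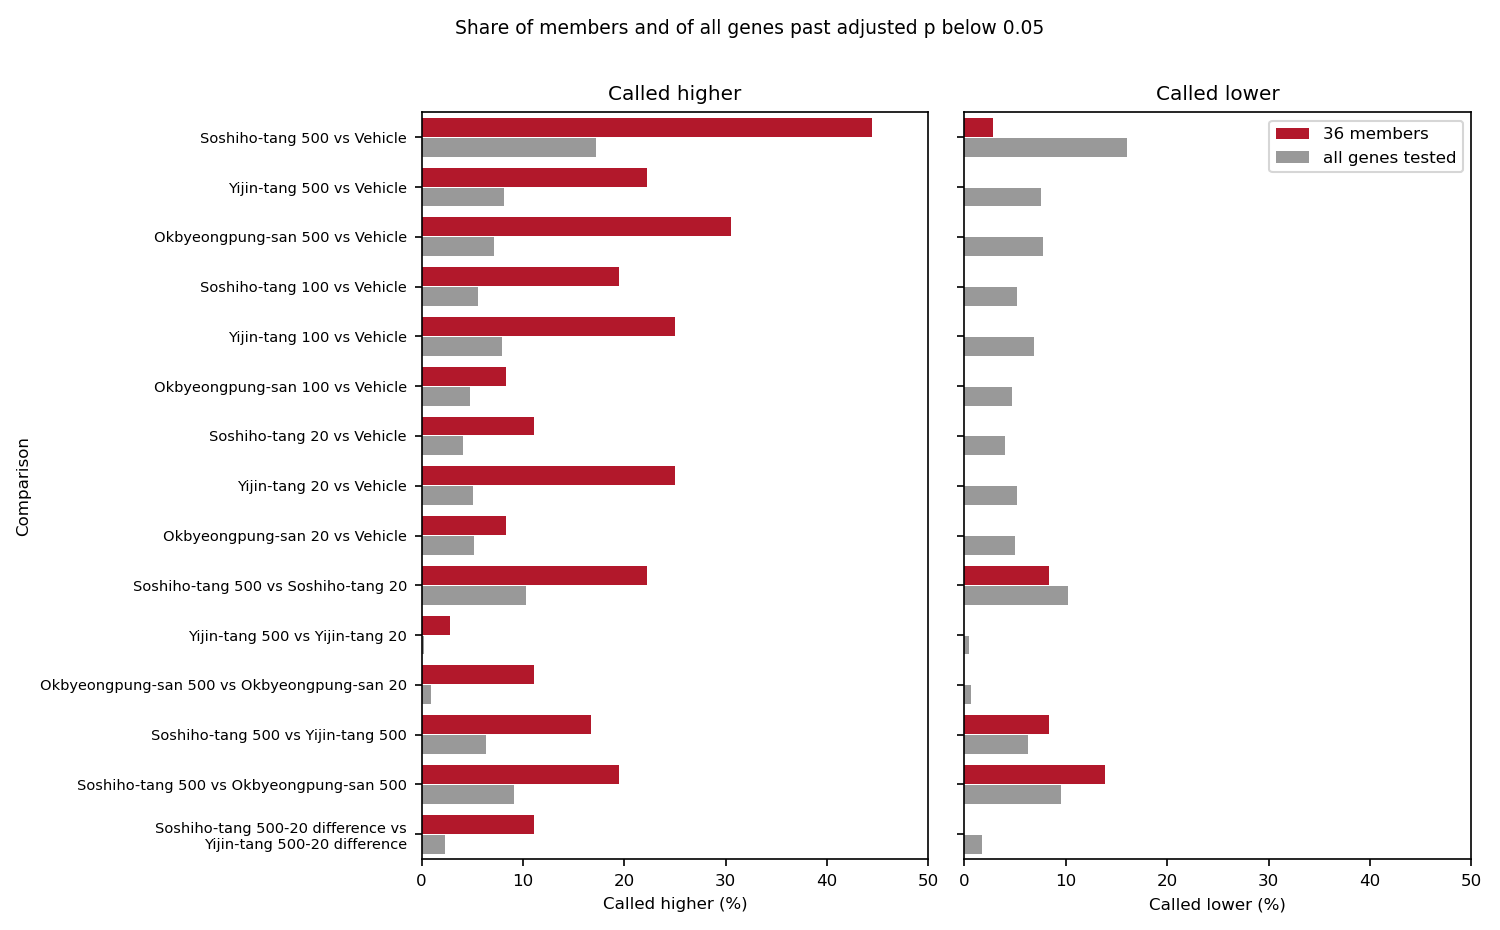
Bars give the percentage of the 36 members (red) and of all 17459 genes tested (grey) called higher (left) and lower (right) in each of 15 comparisons, at an adjusted p below 0.05. With Soshiho-tang at 500 µg/mL over vehicle, 44.4% of members and 17.2% of all genes were called higher, against 2.78% and 16% called lower.

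The higher dose over the lower dose of the same extract does not use the vehicle libraries. With Soshiho-tang, 8 members were higher and 3 lower at 500 than at 20 µg/mL, beside 10.3% and 10.2% of all genes. With Yijin-tang 1 member was higher and 0 lower, beside 0.286% and 0.418% of all genes; here 1 member was lower at an unadjusted p below 0.05 and DESeq2 called that 1, GABARAPL1. With Okbyeongpung-san 4 were higher and 0 lower, beside 0.979% and 0.613%; 0 were lower at an unadjusted p below 0.05, and DESeq2 called 0. The median log2 fold change was 0.03 with Soshiho-tang, 0.01 with Yijin-tang and 0.09 with Okbyeongpung-san, where that of all genes was within 0.01 of 0. SQSTM1 was the member called higher in all 3 extracts. Leaving out any of the Yijin-tang 500 µg/mL replicates or replicate 2 at 20 µg/mL left 0 called members, and leaving out replicate 1 at 20 µg/mL left GABARAPL1 only. For Okbyeongpung-san the count was 1 without replicate 2 at 500 µg/mL, 11 without replicate 3 at 500 µg/mL, 2 without replicate 2 at 20 µg/mL and 1 without replicate 3 at 20 µg/mL. With only the groups compared in the fit, the calls of Yijin-tang and of Okbyeongpung-san were all lost. Leaving out Okbyeongpung-san replicate 3 at 500 µg/mL left 1 library there. LAMP2 and LIPA were then lower than at 20 µg/mL (log2 -0.25 and -0.16), and TFE3, CTSA, NEU1, ATP6V0D1 and OPTN higher (0.26 to 0.46). None of these members was called between these doses in the joint fit.

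**Figure D2:**
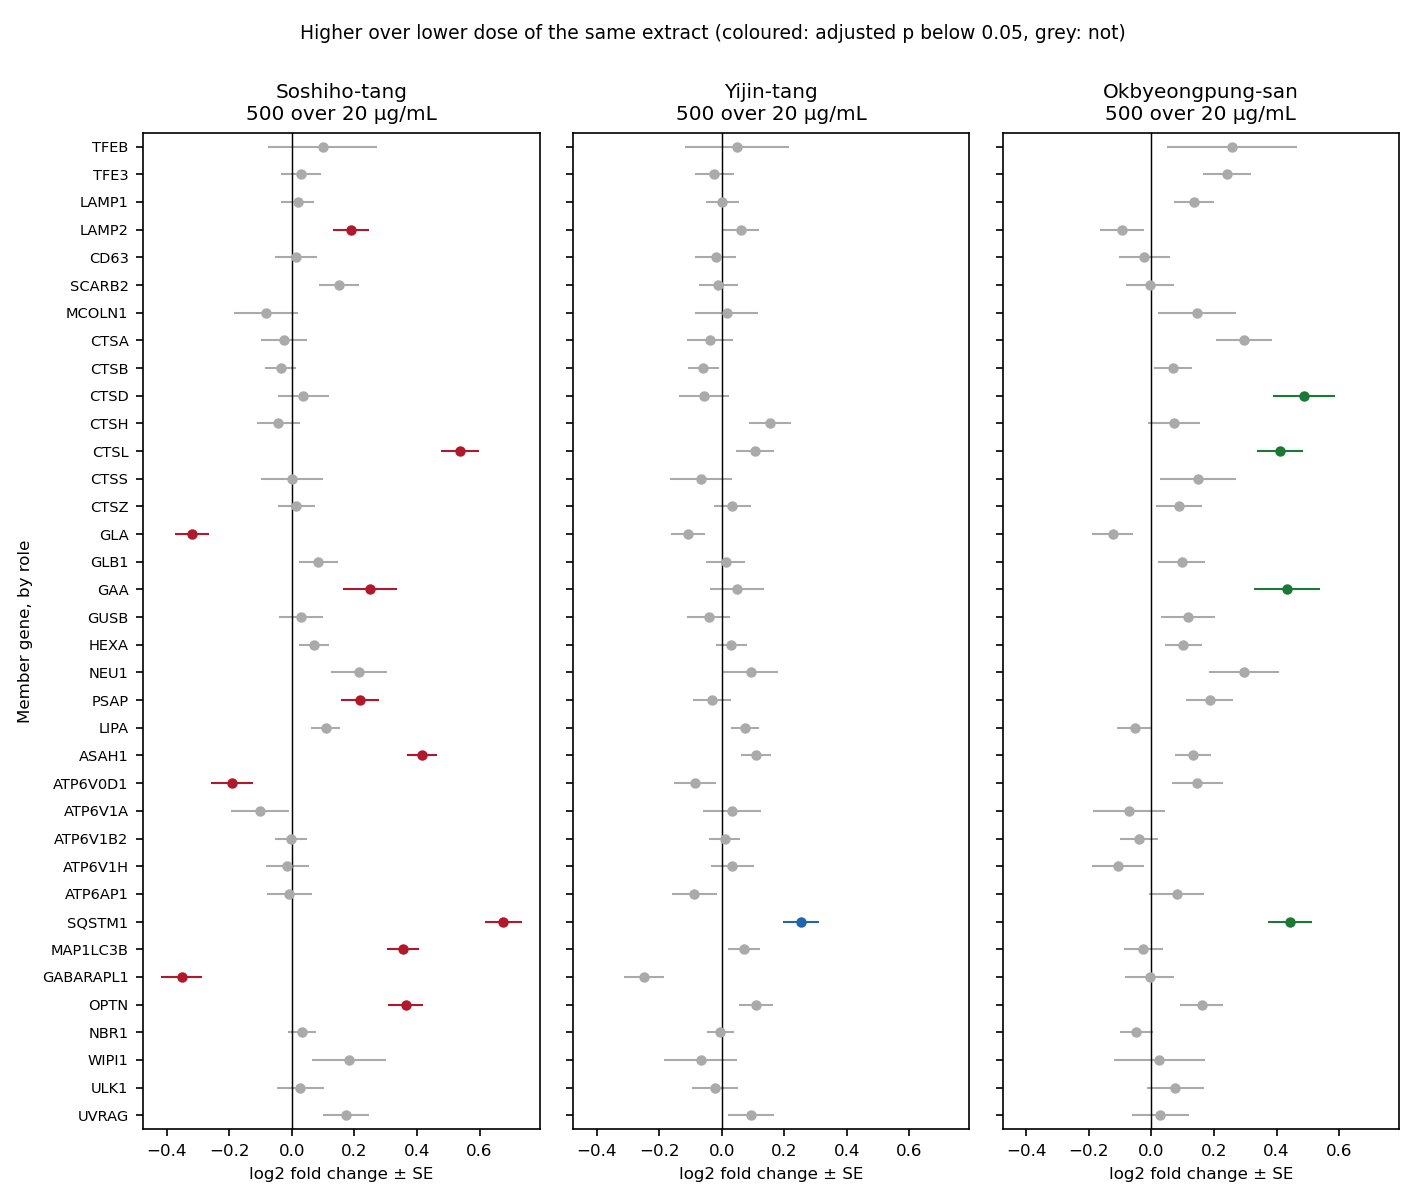
Points are log2 fold changes of 500 over 20 µg/mL for each of the 36 members, by role, in 3 extracts, with bars of 1 standard error; coloured points passed an adjusted p below 0.05. SQSTM1 is at 0.68, 0.25 and 0.44 in Soshiho-tang, Yijin-tang and Okbyeongpung-san, and CTSD is coloured in Okbyeongpung-san, at 0.49.

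The regulators were not called in the joint fit of all groups. TFEB (chromosome 6, 41683978 to 41736259) had 3.23, 3.22 and 2.85 CPM (counts per library total, the totals adjusted by TMM) with Soshiho-tang at 500 µg/mL, against 2.51, 3.16 and 2.97 CPM at 20 µg/mL and 3.41, 4.52 and 2.59 CPM in vehicle. The 3 groups overlapped. Its log2 fold change with Soshiho-tang at 500 µg/mL was -0.18 ± 0.18 over vehicle (SE; adjusted p = 0.487, edgeR) and 0.10 ± 0.17 over 20 µg/mL (adjusted p = 0.752, edgeR). Only 55 to 152 counts per library lie behind these levels, so the precision for TFEB is lower than for the other members named here. TFE3 (chromosome X, 49028726 to 49043486), at 2052 to 4533 counts, was measured more closely. It had 109, 102 and 112 CPM with Soshiho-tang at 500 µg/mL, against 103, 106 and 108 CPM at 20 µg/mL and 108, 102 and 107 CPM in vehicle, so these groups overlapped too. The log2 fold changes were 0.03 ± 0.06 over vehicle (adjusted p = 0.784, edgeR) and 0.03 ± 0.06 over 20 µg/mL (adjusted p = 0.802, edgeR). With Okbyeongpung-san TFE3 had 122 and 96.0 CPM at 500 µg/mL, against 94.3 and 90.1 CPM at 20 µg/mL, and the difference was not called (log2 0.24 ± 0.08, adjusted p = 0.111, edgeR). Without replicate 3 at 500 µg/mL it was 0.39 (adjusted p = 4.9e-04) over 20 µg/mL and 0.20 (adjusted p = 0.0264) over vehicle. DESeq2 called TFE3 lower with Okbyeongpung-san at 20 µg/mL than in vehicle (log2 -0.20, adjusted p = 0.0463).

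Among the membrane proteins, LAMP2 and SCARB2 were called higher with Soshiho-tang at 500 µg/mL over vehicle, and CD63 was called in nearly every vehicle comparison. LAMP2, a main glycoprotein of the lysosomal membrane and receptor of chaperone-mediated autophagy (chromosome X, 120427827 to 120469365), had 138, 135 and 139 CPM with Soshiho-tang at 500 µg/mL, against 121, 114 and 126 CPM at 20 µg/mL and 123, 116 and 121 CPM in vehicle. Every 500 µg/mL library lay above all of the others. The log2 fold change was 0.19 ± 0.06 over both 20 µg/mL (adjusted p = 0.0201, edgeR) and vehicle (adjusted p = 0.0119). The call over 20 µg/mL was lost without replicate 2 at 20 µg/mL (adjusted p = 0.0866) or replicate 3 at 500 µg/mL (0.0603), and that over vehicle without vehicle replicate 2 (0.0644). SCARB2, the receptor that carries glucocerebrosidase to the lysosome, had a log2 fold change of 0.25 ± 0.06 over vehicle (adjusted p = 0.00352, edgeR). CD63, a tetraspanin of late endosomes and lysosomes, averaged 273 to 283.5 CPM in the replicated treated groups and was called higher than vehicle in 8 of 9 extract and dose groups. It had 278, 288 and 265 CPM with Soshiho-tang at 500 µg/mL, against 290, 280 and 255 CPM at 20 µg/mL and 237, 230 and 240 CPM in vehicle. Treated libraries lay above vehicle whatever the dose, and the doses overlapped. The count of 8 was 4 without vehicle replicate 1, 2 without vehicle replicate 2 and 4 without vehicle replicate 3, and with Okbyeongpung-san at 500 and at 20 µg/mL the call was lost whichever library was left out (adjusted p 0.0725 to 0.197). LAMP1, the companion of LAMP2, was called in 1 comparison, Okbyeongpung-san at 500 µg/mL over vehicle, with a log2 fold change of 0.19 ± 0.06 (adjusted p = 0.0317, edgeR), and lost that call without any 1 of the 5 libraries compared (adjusted p 0.0552 to 0.125). MCOLN1, a cation channel of the lysosomal membrane, was called in none of the 15 comparisons of the joint fit. Without replicate 3 of Okbyeongpung-san at 500 µg/mL its log2 fold change over vehicle was 0.45.

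Among the cathepsins CTSL was called most often, in 8 of 9 comparisons with vehicle. It encodes cathepsin L, a cysteine protease of the lysosome (chromosome 9, 87725519 to 87731393). CTSL had 344, 365 and 393 CPM with Soshiho-tang at 500 µg/mL, against 238, 261 and 260.4 CPM at 20 µg/mL and 211, 209 and 209.6 CPM in vehicle. The 3 groups were separate. Soshiho-tang at 500 µg/mL was 1.75-fold over vehicle (log2 0.81 ± 0.06, adjusted p = 4.7e-10, edgeR) and 1.45-fold over 20 µg/mL (log2 0.54 ± 0.06, adjusted p = 4.2e-07). With Okbyeongpung-san CTSL had 319.8 and 324 CPM at 500 µg/mL, against 247 and 237 CPM at 20 µg/mL. That was 1.54-fold over vehicle (log2 0.62 ± 0.07, adjusted p = 2.9e-06, edgeR) and 1.33-fold over 20 µg/mL (log2 0.41 ± 0.07, adjusted p = 0.00374). The call over 20 µg/mL was lost without replicate 3 at 20 µg/mL (log2 0.38, adjusted p = 0.128). With Yijin-tang at 500 µg/mL the libraries had 269, 269 and 281 CPM, above vehicle (log2 0.38 ± 0.06, adjusted p = 2.6e-04, edgeR) but overlapping the 237, 241 and 282 CPM at 20 µg/mL (log2 0.11 ± 0.06, adjusted p = 0.778).

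CTSD, the aspartic protease cathepsin D, was called only with Okbyeongpung-san at 500 µg/mL among the comparisons with vehicle and with 20 µg/mL. It had 327 CPM in replicate 2 and 241 CPM in replicate 3, against 206 and 199 CPM at 20 µg/mL and 218, 217 and 221 CPM in vehicle. Both 500 µg/mL libraries lay above the rest, and replicate 2 stood far above replicate 3. The log2 fold change was 0.49 ± 0.10 over 20 µg/mL (adjusted p = 0.0112, edgeR) and 0.38 ± 0.09 over vehicle (adjusted p = 0.00756). Without replicate 2 at 500 µg/mL these were 0.25 (adjusted p = 0.5999) and 0.14 (adjusted p = 0.346), and the call over 20 µg/mL was also lost without replicate 2 (0.0937) or replicate 3 (0.218) at 20 µg/mL. With Soshiho-tang at 500 µg/mL CTSD had 232, 219.6 and 216 CPM, overlapping the 217.5, 225 and 208 CPM at 20 µg/mL. CTSB, CTSA, CTSH, CTSS and CTSZ were not called between 500 and 20 µg/mL of any extract in the joint fit. Of these CTSB was called higher in 4 vehicle comparisons by log2 0.16 to 0.17, and in 0 of them without vehicle replicate 1 (adjusted p 0.140 to 0.180, edgeR), 2 (0.0556 to 0.0762) or 3 (0.0719 to 0.0960). CTSS and CTSZ were called in none of the 15 comparisons of the joint fit. With Okbyeongpung-san, DESeq2 called CTSA higher at 500 than at 20 µg/mL (log2 0.30, adjusted p = 0.0363). The edgeR fit without a filter on low counts called it too (0.31, adjusted p = 0.0163). Under the length and GC offset CTSS was called over vehicle with Okbyeongpung-san at 500 µg/mL (0.38, adjusted p = 0.0146, edgeR). It was called with Soshiho-tang at 500 µg/mL without replicate 1 (0.31, adjusted p = 0.0318, edgeR).

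Of the glycosidases, lipid hydrolases and activators, 6 of 9 were called higher with Soshiho-tang at 500 µg/mL over vehicle, beside 17.2% of all genes, namely GAA, HEXA, NEU1, PSAP, LIPA and ASAH1. ASAH1, acid ceramidase, which splits ceramide in the lysosome (chromosome 8, 18055992 to 18084998), had 82.4, 85.5 and 85.6 CPM with Soshiho-tang at 500 µg/mL, against 64.1, 62.8 and 63.2 CPM at 20 µg/mL and 54.0, 61.0 and 58.7 CPM in vehicle. The 500 µg/mL libraries lay well above all others. The log2 fold change was 0.42 ± 0.05 over 20 µg/mL (adjusted p = 4.8e-07, edgeR) and 0.55 ± 0.05 over vehicle (adjusted p = 6.0e-09). ASAH1 had 68.8, 69.4 and 69.9 CPM with Yijin-tang at 500 µg/mL and 63.5 and 70.1 CPM with Okbyeongpung-san at 500 µg/mL. Both were called higher than vehicle (log2 0.26 ± 0.05, adjusted p = 9.3e-04, and log2 0.21 ± 0.05, adjusted p = 0.0133, edgeR). The Okbyeongpung-san call was lost without vehicle replicate 1 (0.0766) or replicate 3 at 500 µg/mL (0.133). PSAP, the precursor of the saposins that activate lipid hydrolases (chromosome 10, 71816298 to 71851375), had 860.2, 844 and 808 CPM with Soshiho-tang at 500 µg/mL, against 765, 729 and 666 CPM at 20 µg/mL and 649.5, 638 and 654.5 CPM in vehicle. Every 500 µg/mL library was above every 20 µg/mL library, but the 20 µg/mL libraries were also above vehicle. The log2 fold change was 0.22 ± 0.06 over 20 µg/mL (adjusted p = 0.0123, edgeR), which became 0.17 (adjusted p = 0.0777) without replicate 3 at 20 µg/mL, and 0.37 ± 0.06 over vehicle (adjusted p = 5.0e-05).

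GAA, acid alpha-glucosidase, which degrades glycogen in the lysosome (chromosome 17, 80101556 to 80119879), was called in Soshiho-tang and in Okbyeongpung-san. It had 102, 96.0 and 99.4 CPM with Soshiho-tang at 500 µg/mL, against 78.9, 91.2 and 79.99 CPM at 20 µg/mL and 79.7, 81.0 and 78.2 CPM in vehicle. These 500 µg/mL libraries lay above the others (log2 0.25 ± 0.09 over 20 µg/mL, adjusted p = 0.0424; log2 0.32 ± 0.09 over vehicle, adjusted p = 0.00696, edgeR). The call over 20 µg/mL was lost without any of the 6 libraries except replicate 2 at 20 µg/mL, with adjusted p of 0.0664 to 0.139. With Okbyeongpung-san GAA had 115 and 86.6 CPM at 500 µg/mL, against 76.9 and 72.3 CPM at 20 µg/mL. Its log2 fold change there was 0.43 ± 0.11 (adjusted p = 0.0363, edgeR). Without replicate 2 at 500 µg/mL it was 0.22 (adjusted p = 0.928), and without replicate 2 or 3 at 20 µg/mL the adjusted p was 0.137 or 0.411. GLA, alpha-galactosidase A, went the other way with dose. It had 90.8, 88.0 and 83.2 CPM with Soshiho-tang at 500 µg/mL, against 110.2, 108 and 109 CPM at 20 µg/mL and 96.1, 97.2 and 92.9 CPM in vehicle. Levels at 500 µg/mL were below both, while those at 20 µg/mL were above vehicle. GLA fell by 0.32 ± 0.05 on the log2 scale at 500 µg/mL, relative to 20 µg/mL (adjusted p = 1.0e-04, edgeR), and was not called over vehicle (log2 -0.13 ± 0.05, adjusted p = 0.0770). HEXA, a subunit of beta-hexosaminidase, was called higher than vehicle in 7 of 9 groups, with no call between doses; without vehicle replicate 3 it was called in 4. GLB1 and GUSB, a beta-galactosidase and a beta-glucuronidase, were called in none of the 15 comparisons of the joint fit. In edgeR refits GLB1 was called higher with Soshiho-tang at 500 µg/mL over vehicle. This was so with the replicate number as a block (log2 0.16, adjusted p = 0.0438) and with the length and GC offset (0.15, adjusted p = 0.0402). It also held with only the groups compared (0.15, adjusted p = 0.0131).

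Among the 5 listed genes of the proton pump, which acidifies the lysosome, the call between doses in the joint fit was a lower level. ATP6V0D1, a subunit of the pump's membrane part (chromosome 16, 67438014 to 67481237), had 39.9, 38.3 and 38.7 CPM with Soshiho-tang at 500 µg/mL, against 45.5, 43.8 and 44.2 CPM at 20 µg/mL and 48.4, 49.5 and 47.9 CPM in vehicle. The 3 groups did not overlap. ATP6V0D1 fell by 0.32 ± 0.07 on the log2 scale relative to vehicle (adjusted p = 9.2e-04, edgeR) and by 0.19 ± 0.07 relative to 20 µg/mL (adjusted p = 0.0469). The call relative to 20 µg/mL was lost whichever of the 6 libraries was left out (log2 -0.20 to -0.17, adjusted p 0.0858 to 0.152). With Okbyeongpung-san at 500 µg/mL ATP6V0D1 was not called in the joint fit over vehicle or 20 µg/mL. Without replicate 3, which leaves 1 library there, its log2 fold change was 0.33 over 20 µg/mL and 0.27 over vehicle. Replicate 3 itself was at log2 -0.07 over 20 µg/mL within batch D. ATP6V1H, a subunit of the cytosolic part, was called higher than vehicle in 5 of 9 groups, by log2 0.23 to 0.33. Without vehicle replicate 1, 2 or 3 it was called in 1, 2 or 7 groups, the last of these including Soshiho-tang at 500 µg/mL (adjusted p = 0.0450, edgeR). ATP6V1A, ATP6V1B2 and ATP6AP1 were called in none of the 15 comparisons of the joint fit. In edgeR refits ATP6AP1 was called higher with Yijin-tang at 20 µg/mL over vehicle without a filter on low counts (log2 0.23, adjusted p = 0.0137). The length and GC offset called it too (0.20, adjusted p = 0.0161). With only the groups compared, ATP6AP1 (0.10, adjusted p = 0.0427) and ATP6V1A (0.12, adjusted p = 0.0373) were called with Okbyeongpung-san at 100 µg/mL.

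Of the members called with Soshiho-tang at 500 over 20 µg/mL the largest change was in SQSTM1, the gene of the autophagy receptor p62 (chromosome 5, 179806398 to 179838078). It had 1248, 1317 and 1276 CPM with Soshiho-tang at 500 µg/mL, against 822, 815 and 767 CPM at 20 µg/mL and 749, 772 and 789.5 CPM in vehicle. The 500 µg/mL libraries were far above both other groups, which overlapped. Soshiho-tang at 500 µg/mL was 1.598-fold over 20 µg/mL (log2 0.68 ± 0.06, adjusted p = 4.8e-09, edgeR) and 1.66-fold over vehicle (log2 0.73 ± 0.06, adjusted p = 9.2e-10). With Okbyeongpung-san SQSTM1 had 1174 and 1016 CPM at 500 µg/mL, against 803 and 808 CPM at 20 µg/mL, and the log2 fold change was 0.44 ± 0.07 (adjusted p = 0.00111, edgeR). Without replicate 2 at 500 µg/mL it was 0.34 (adjusted p = 0.0665). With Yijin-tang SQSTM1 had 1001, 971 and 956.5 CPM at 500 µg/mL, against 758, 809 and 887 CPM at 20 µg/mL. All 500 µg/mL libraries lay above those at 20 µg/mL (log2 0.25 ± 0.06, adjusted p = 0.0323, edgeR). Of the 6 libraries only the removal of replicate 3 at 20 µg/mL kept this call; the removal of any other gave log2 0.20 to 0.27 with adjusted p of 0.0847 to 0.168.

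MAP1LC3B, OPTN and GABARAPL1 changed between 500 and 20 µg/mL of Soshiho-tang. MAP1LC3B, which encodes the LC3B protein bound to autophagosome membranes (chromosome 16, 87383995 to 87404779), had 81.8, 90.8 and 90.4 CPM at 500 µg/mL, against 71.1, 65.2 and 69.7 CPM at 20 µg/mL and 65.7, 68.1 and 66.6 CPM in vehicle. The log2 fold change was 0.35 ± 0.05 over 20 µg/mL (adjusted p = 1.6e-05, edgeR) and 0.39 ± 0.05 over vehicle (adjusted p = 2.9e-06). OPTN, a receptor for ubiquitin-tagged mitochondria and bacteria (chromosome 10, 13099449 to 13138308), had 31.0, 33.0 and 31.1 CPM at 500 µg/mL, against 24.8, 24.3 and 24.8 CPM at 20 µg/mL and 24.6, 24.5 and 25.8 CPM in vehicle. For both genes all 500 µg/mL libraries were above all others. OPTN's log2 fold change was 0.36 ± 0.06 over 20 µg/mL (adjusted p = 3.0e-05, edgeR) and 0.34 ± 0.06 over vehicle (adjusted p = 4.8e-05). GABARAPL1, of the same protein family as LC3B, had 26.5, 29.5 and 26.4 CPM at 500 µg/mL, against 33.5, 36.03 and 35.7 CPM at 20 µg/mL and 31.6, 29.6 and 30.9 CPM in vehicle. It fell by 0.35 ± 0.07 on the log2 scale relative to 20 µg/mL (adjusted p = 3.1e-04, edgeR) and was not called relative to vehicle (log2 -0.16 ± 0.07, adjusted p = 0.0716). With Yijin-tang GABARAPL1 had 30.9, 30.8 and 28.7 CPM at 500 µg/mL, against 32.6, 35.9 and 38.8 CPM at 20 µg/mL, and missed the threshold in edgeR (log2 -0.25 ± 0.06, adjusted p = 0.0793) but passed it in DESeq2 (adjusted p = 0.0300). MAP1LC3B and GABARAPL1 have near-identical copies elsewhere in the genome, so how reads were divided is uncertain. NBR1, another receptor, was called in 1 comparison, Soshiho-tang at 500 µg/mL over vehicle, by log2 0.12 ± 0.04 (adjusted p = 0.0445, edgeR), and that call was lost without vehicle replicate 1 (0.167) or 2 (0.115), or without replicate 2 (0.0855) or 3 (0.157) at 500 µg/mL.

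In autophagy initiation, WIPI1 and UVRAG were called higher with Soshiho-tang at 500 µg/mL over vehicle and in no other comparison of the joint fit. WIPI1, which binds the lipid that marks forming autophagosomes, had 6.85, 7.57 and 7.48 CPM, against 5.66, 5.17 and 5.27 CPM in vehicle (log2 0.45 ± 0.13, adjusted p = 0.00831, edgeR). The 20 µg/mL libraries, at 6.01, 6.01 and 7.26 CPM, lay above vehicle as well and overlapped those at 500 µg/mL. UVRAG, a partner of Beclin 1, had 18.8, 18.5 and 22.1 CPM, against 15.8, 17.0 and 16.3 CPM in vehicle (log2 0.28 ± 0.08, adjusted p = 0.00712, edgeR; 0.19 and 0.0718 without replicate 3 at 500 µg/mL). ULK1, the kinase that starts autophagosome formation, was called in none of the 15 comparisons of the joint fit. With the length and GC offset it was called higher with Yijin-tang at 100 µg/mL over vehicle (log2 0.11, adjusted p = 0.0401, edgeR). The offset also called it higher with Soshiho-tang than with Okbyeongpung-san at 500 µg/mL (0.19, adjusted p = 0.0015, edgeR). NEU1, a sialidase of the lysosome, was called over vehicle with Soshiho-tang (log2 0.29 ± 0.09, adjusted p = 0.0204) and with Okbyeongpung-san (0.34 ± 0.10, adjusted p = 0.0285, edgeR) at 500 µg/mL. The Soshiho-tang call was lost without vehicle replicate 2 (0.0670), or replicate 1 (0.0679) or 3 (0.0659) at 500 µg/mL. The Okbyeongpung-san call held only without its replicate 3 (adjusted p up to 0.562 otherwise).

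**Figure D3:**
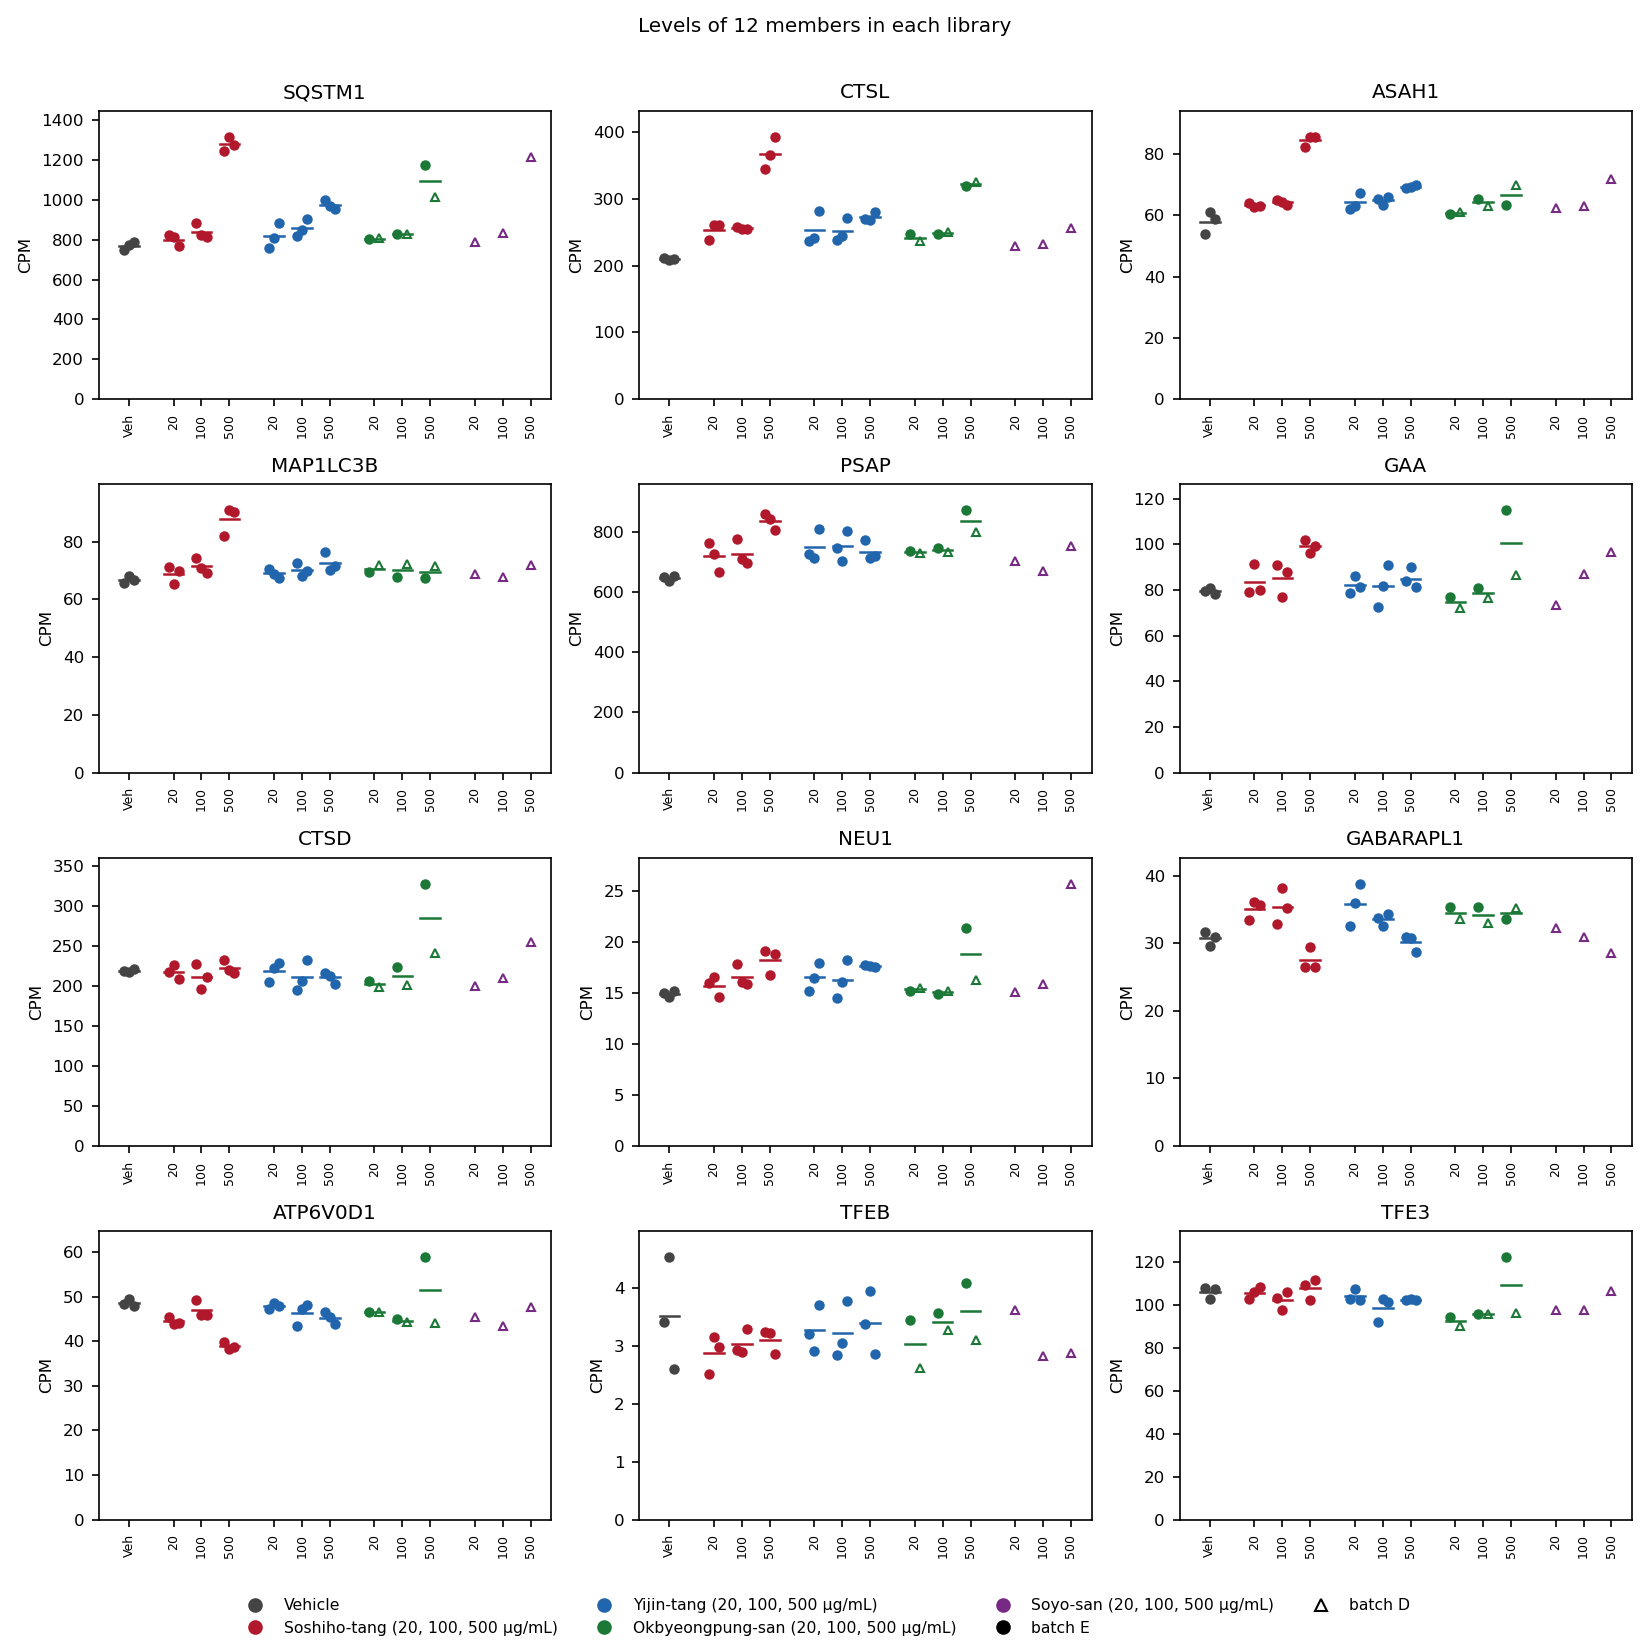
Each panel shows 1 member, with CPM from 0 on the vertical axis and vehicle, then 20, 100 and 500 µg/mL of each extract, on the horizontal axis. Points are libraries (triangles: batch D) and lines are means where a group has more than 1 library. SQSTM1 reaches 1248 to 1317 CPM with Soshiho-tang at 500 µg/mL, and NEU1 is highest in the single Soyo-san library at 500 µg/mL, at 25.7 CPM.

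At lower doses the called members were again all higher than vehicle. At 20 µg/mL 4 were called with Soshiho-tang (CD63, CTSL, GLA and HEXA), 9 with Yijin-tang and 3 with Okbyeongpung-san (CD63, GLA and ATP6V1H), where 4.06%, 5.09% and 5.21% of all genes were higher and 3.96%, 5.16% and 4.95% lower. At 100 µg/mL 7 were called with Soshiho-tang, 9 with Yijin-tang and 3 with Okbyeongpung-san (CTSL, GLA and ATP6V1H), where 5.57%, 7.89% and 4.75% of all genes were higher and 5.19%, 6.82% and 4.74% lower. In these 6 comparisons edgeR called 0 members lower; 0 were lower at an unadjusted p below 0.05, except 2 with Okbyeongpung-san at 20 µg/mL, of which DESeq2 called 1, TFE3. Refits did call some lower: ATP6V0D1 with Soshiho-tang at 20 µg/mL under the length and GC offset, and, with only the groups compared in the fit, TFE3, CTSA and CTSD with Okbyeongpung-san at 20 µg/mL and TFE3 and ATP6V0D1 at 100 µg/mL. CTSL was at 253 ± 13.0 and 256 ± 1.64 CPM with Soshiho-tang at 20 and 100 µg/mL and at 253 ± 25.0 and 251 ± 17.6 CPM with Yijin-tang at these doses (SD, n = 3 each), against 209.9 ± 1.06 CPM in vehicle. SQSTM1 was not called in the joint fit at 20 or 100 µg/mL of any extract. It was at 801 ± 30.0 and 841 ± 39.2 CPM with Soshiho-tang, against 770.4 ± 20.1 CPM in vehicle. In edgeR refits at 100 µg/mL, the length and GC offset called it higher with Soshiho-tang (log2 0.12, adjusted p = 0.0319). The offset did so with Yijin-tang too (0.14, adjusted p = 0.0129). With only the groups compared, SQSTM1 was called higher with Yijin-tang (0.16, adjusted p = 0.0443) and Okbyeongpung-san (0.11, adjusted p = 0.0202). The vehicle libraries of all these comparisons are the ones that stood apart in depth and mitochondrial RNA, whose part in the differences was not tested beyond the refits given here. With the mitochondrial genes left out of the fit, 107 of the 112 calls of members in the 15 comparisons remained and none turned round.

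These counts rested on few libraries. For Soshiho-tang at 20 µg/mL the count was 1 without vehicle replicate 3 or without its own replicate 1 or 2, and 2 without vehicle replicate 1 or 2. For Yijin-tang at 20 µg/mL it was 1 without its own replicate 3, 5 without vehicle replicate 1 or 2 and 4 without vehicle replicate 3. For Okbyeongpung-san at 20 µg/mL it was 0 without either of its libraries and 1 without vehicle replicate 3. At 100 µg/mL the Soshiho-tang count was 1 to 4 whichever library was left out, the Okbyeongpung-san count was 0 without either of its libraries and 1 without any vehicle library, and the Yijin-tang count was 2 without its own replicate 3 and 5 without vehicle replicate 1. GLA, called higher than vehicle in 6 groups, was called in 1 without vehicle replicate 3 and in 4 without vehicle replicate 1 or 2. PSAP, ASAH1 and GABARAPL1, called in 5, 5 and 2, were called in 2, 2 and 0 without vehicle replicate 1, while CTSL, called in 8, was called in 7 without any 1 of them.

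**Figure D4:**
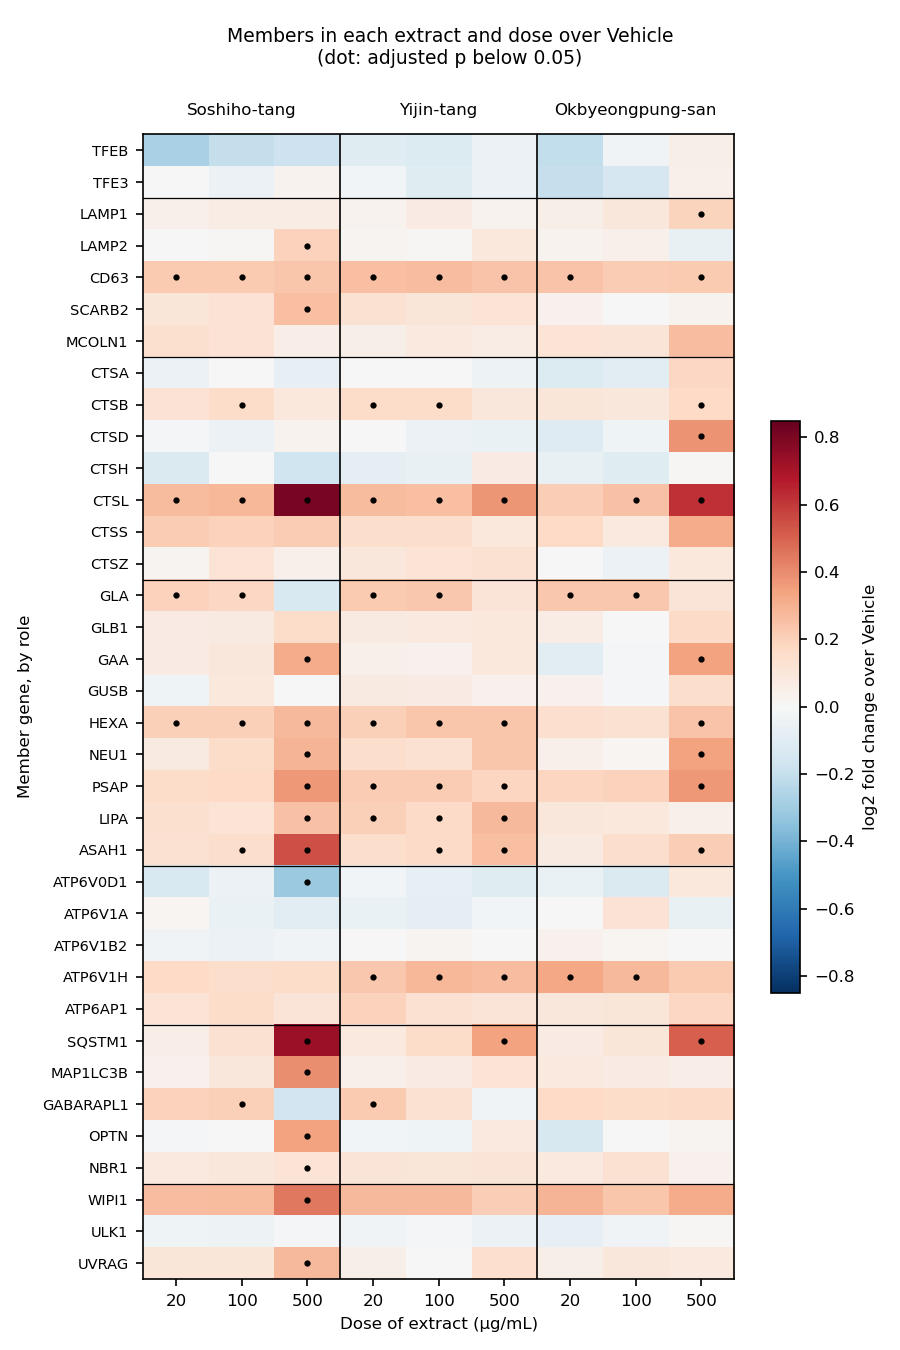
Colours give the log2 fold change over vehicle of each member (rows, by role) in 3 extracts at 20, 100 and 500 µg/mL (columns); dots mark an adjusted p below 0.05. CD63 carries a dot in 8 of 9 columns, of which 2 remain without vehicle replicate 2, and SQSTM1 carries 3, all at 500 µg/mL.

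Set against Yijin-tang at the same 500 µg/mL, Soshiho-tang had 6 members higher and 3 lower, where 6.31% of all genes were higher and 6.29% lower. The higher ones were CTSL (log2 0.43 ± 0.06, adjusted p = 1.8e-05, edgeR), SQSTM1 (0.39 ± 0.06, adjusted p = 3.2e-05), ASAH1 (0.29 ± 0.05), MAP1LC3B (0.28 ± 0.05), OPTN (0.26 ± 0.05) and PSAP (0.19 ± 0.06, adjusted p = 0.0424). The lower ones were CTSH and GLA (log2 -0.24 each) and ATP6V0D1 (-0.21 ± 0.07, adjusted p = 0.0391). PSAP lost its call without Soshiho-tang replicate 1 (0.121) or 2 (0.119), or Yijin-tang replicate 2 (0.146) or 3 (0.119). CTSH lost it without Soshiho-tang replicate 1 (0.0784) or 3 (0.0823), or Yijin-tang replicate 1 (0.0534), 2 (0.0611) or 3 (0.0693), and ATP6V0D1 lost it without any 1 of the 6 libraries (adjusted p 0.0649 to 0.124).

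The dose effects of these extracts were also compared directly, as the 500 over 20 µg/mL difference of Soshiho-tang minus that of Yijin-tang. The difference was larger in Soshiho-tang for 4 members and smaller for 0, where 2.27% of all genes were called larger and 1.76% smaller; 1 member was smaller at an unadjusted p below 0.05, and DESeq2 called 0. The 4 were CTSL (log2 0.43 ± 0.09, adjusted p = 0.00289, edgeR), SQSTM1 (0.42 ± 0.08, adjusted p = 0.00226), ASAH1 (0.31 ± 0.07, adjusted p = 0.00691) and MAP1LC3B (0.28 ± 0.07, adjusted p = 0.0246). With no filter on low counts ASAH1 and MAP1LC3B lost the call (adjusted p = 0.0875 and 0.146, edgeR). CTSL, SQSTM1 and ASAH1 kept the call without any 1 of the 12 libraries. MAP1LC3B lost it without 6 of them (adjusted p 0.0532 to 0.0864): Yijin-tang replicate 1 at 20 µg/mL and replicates 2 and 3 at 500 µg/mL, and Soshiho-tang replicate 2 at 20 µg/mL and replicates 2 and 3 at 500 µg/mL. In the joint fit the 500 over 20 µg/mL differences of GLA, GABARAPL1 and OPTN were not called as different between the extracts (adjusted p = 0.135, 0.658 and 0.0706). In edgeR refits that of GLA was called smaller in Soshiho-tang with the length and GC offset (log2 -0.22, adjusted p = 0.0243). So it was without Yijin-tang replicate 3 at 20 µg/mL (-0.27, adjusted p = 0.0263). That of OPTN was called larger with only the groups compared (0.26, adjusted p = 0.0497).

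Set against Okbyeongpung-san at 500 µg/mL, Soshiho-tang had 7 members higher and 5 lower, where 9.14% of all genes were higher and 9.55% lower; the median member was at log2 -0.02. MAP1LC3B (log2 0.34 ± 0.06, adjusted p = 1.8e-04, edgeR), ASAH1 (0.34 ± 0.05), OPTN (0.32 ± 0.06), LAMP2 (0.26 ± 0.06), SCARB2 (0.22 ± 0.07), SQSTM1 (0.22 ± 0.06) and LIPA (0.21 ± 0.05) were higher with Soshiho-tang. ATP6V0D1 (-0.41 ± 0.07, adjusted p = 4.0e-04), CTSD (-0.35 ± 0.09), GABARAPL1 (-0.32 ± 0.07), CTSA (-0.25 ± 0.08) and GLA (-0.23 ± 0.06) were lower. Without Okbyeongpung-san replicate 2 the count was 6, and LAMP2 (adjusted p = 0.302), SCARB2 (0.474), LIPA (0.279), CTSD (0.538), CTSA (0.766) and ATP6V0D1 (0.0914) lost their calls. SQSTM1 lost its call without Okbyeongpung-san replicate 3 (0.191) or Soshiho-tang replicate 2 (0.0552), SCARB2 also without Soshiho-tang replicate 3 (0.131), and CTSA also without Soshiho-tang replicate 1 (0.0979), 2 (0.0539) or 3 (0.0560). CTSL was not called here (log2 0.19 ± 0.07, adjusted p = 0.0518, edgeR), but it was with the replicate block (0.21, adjusted p = 0.0123), with the length and GC offset (0.0226), with the 1 CPM filter (0.0462), in DESeq2 (0.0291) and without Soshiho-tang replicate 1 (0.0277). With only these 2 groups in the fit all 12 calls were lost.

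Each Okbyeongpung-san dose has 1 library in batch E and 1 in batch D, which allows 500 over 20 µg/mL within each batch, as single pairs with no test. SQSTM1 was higher at 500 µg/mL by log2 0.55 in batch E and 0.33 in batch D, CTSL by 0.37 and 0.45, CTSD by 0.67 and 0.28, and GAA by 0.58 and 0.26. Over all members 18 were higher at 500 µg/mL in both batches, 5 were lower in both and 13 had opposite signs. These signs were not counted over all genes, so whether the members differ from other genes here is not known. ATP6V0D1 was among those with replicate 2 far above replicate 3, at 58.8 and 44.2 CPM. Vehicle has no library in batch D, so for the batch D libraries batch and treatment over vehicle cannot be told apart.

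Soyo-san, with 1 library per dose, has no replicate check. Relative to vehicle, 2 members were at least 1.5-fold higher at 500 µg/mL and 0 lower, beside 1.74% and 2.04% of all genes, on a scale of log2(CPM + 0.5). The same 2 members, SQSTM1 and NEU1, passed 1.5-fold over 20 µg/mL, with 0 lower, beside 1.44% and 1.08% of all genes. SQSTM1 was at 787, 836 and 1217 CPM at 20, 100 and 500 µg/mL, a log2 difference of 0.63 between 500 and 20 µg/mL. NEU1 was at 15.1, 15.9 and 25.7 CPM, a log2 difference of 0.75, and its level at 500 µg/mL was the highest of all 30 libraries. CTSL was at 229, 232 and 256 CPM, above the 209 to 211 CPM of vehicle. CD63 and LAMP2 were at 268 and 130 CPM at 500 µg/mL, against 267 and 123 CPM at 20 µg/mL.

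Other genes of the pathway were counted from 7 further lists in Soshiho-tang at 500 over 20 µg/mL, where 10.3% of all genes were higher and 10.2% lower. Of 32 further acid hydrolases 7 were higher and 3 lower, of 21 genes of lysosomal membrane and transport 4 and 2, of 11 other proton pump subunits 1 and 1, of 23 genes of the autophagy machinery 2 and 3, of 10 other autophagy receptors 2 and 2, and of 15 genes of enzyme sorting 3 and 3. Their medians lay between log2 -0.07 and 0.12. Of 16 genes of MiT/TFE control and nutrient sensing 4 were higher and 0 lower. These 4 held FLCN (log2 0.72 ± 0.09, adjusted p = 2.8e-06, edgeR) and FNIP1 (0.44 ± 0.11, adjusted p = 0.00539), whose proteins act together on the Rag GTPases at the lysosome, and RRAGD (0.50 ± 0.14, adjusted p = 0.00915), the gene of such a GTPase. FLCN had 41.8, 41.9 and 37.9 CPM at 500 µg/mL, against 27.3, 23.7 and 23.2 CPM at 20 µg/mL and 24.2, 24.2 and 24.7 CPM in vehicle, with no overlap between 500 µg/mL and the rest. RRAGD was also called with Yijin-tang (0.57 ± 0.13, adjusted p = 0.0384, edgeR). Among acid hydrolases the largest were IDUA, of glycosaminoglycan breakdown (0.64 ± 0.12), AGA, of glycoprotein breakdown (0.44 ± 0.07), and DNASE2, of DNA breakdown (0.44 ± 0.07). IDUA (0.60 ± 0.15, adjusted p = 0.0415), DNASE2 (0.37 ± 0.09, adjusted p = 0.0347) and CTSF, another cathepsin (0.36 ± 0.09, adjusted p = 0.0483, edgeR), were the 3 acid hydrolases called with Okbyeongpung-san. Refits and left-out libraries were examined for the members only. Whether the calls of further genes, here and in the next paragraph, hold under them was not tested.

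Other expression programmes moved beside the members, and their part was not tested. Of 8 stress response factors and targets, all 8 were higher with Soshiho-tang at 500 over 20 µg/mL, beside 10.3% of all genes. They were led by DDIT3 at log2 2.18 ± 0.11 and TRIB3 at 2.06 ± 0.08. With Yijin-tang 3 were higher, beside 0.286% of all genes, and with Okbyeongpung-san 1, beside 0.979%. HMOX1, a target of the factor NRF2, was higher in all 3 (log2 0.62 ± 0.06, 0.38 ± 0.06 and 0.83 ± 0.07 in Soshiho-tang, Yijin-tang and Okbyeongpung-san). Of the 7 NRF2 targets listed, 2 were higher (HMOX1 and SLC7A11) and 2 lower (GCLC and TXNRD1) with Soshiho-tang at 500 over 20 µg/mL. Beside them 10.3% of all genes were higher and 10.2% lower. HMOX1 was the 1 target called with Yijin-tang or Okbyeongpung-san. The 6 epithelial markers summed to 4789 to 5356 TPM with Soshiho-tang at 500 µg/mL, against 5732 to 6070 TPM at 20 µg/mL and 5744 to 5807 TPM in vehicle. Most of this sum is KRT8 and KRT18, called lower at 500 over 20 µg/mL (log2 -0.34 ± 0.09 and -0.24 ± 0.06). KRT19 went the other way and was called higher (0.30 ± 0.10, adjusted p = 0.0264, edgeR). The 7 macrophage and leukocyte markers summed to 12.4 to 17.0 TPM with Soshiho-tang at 500 µg/mL, against 11.2 to 12.9 TPM at 20 µg/mL and 13.7 to 15.5 TPM in vehicle. In Okbyeongpung-san at 500 µg/mL that sum was 12.9 and 22.2 TPM. The 6 fibroblast markers summed to 6.27 to 7.94 TPM with Soshiho-tang at 500 µg/mL, against 8.69 to 10.2 TPM at 20 µg/mL and 9.48 to 9.79 TPM in vehicle, and DCN and COL1A2 among them were at 0 in 21 and 16 of the 30 libraries. With Soshiho-tang at 500 µg/mL the mitochondrially encoded mRNAs were lower in 12 of 13 cases relative to vehicle but in 1 of 13 relative to 20 µg/mL. Of all genes 16% and 10.2% were lower in these comparisons.

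The promoters of the members were read for the E-box that TFEB and TFE3 recognise. Of the 36 members 26 had a promoter in the RefSeq table (GRCh38.p14), taken from 250 bases before to 50 bases after the gene's start, on the gene's strand. The core E-box CACGTG was in 8 of them (LAMP1, CD63, MCOLN1, CTSA, CTSD, GAA, NEU1 and ATP6V0D1), and in 8.78% of the 27305 genes of the table. Its extended form TCACGTGA was in 5 (LAMP1, MCOLN1, CTSA, GAA and ATP6V0D1), and in 1.18% of genes. Every TCACGTGA also counts as a CACGTG, and both read the same on either strand. TGATGNAAT, the letters of a site of the stress factors ATF4 and CHOP, searched on both strands, was in 0 of the 26 and in 1.22% of genes. A match is only a run of letters in this window. Below are 4 promoters with the E-box in capitals, extended where present. GAA (chr17:80101331-80101630, plus strand) was higher with Soshiho-tang and Okbyeongpung-san, and CTSD (chr11:1763878-1764177, minus strand) with Okbyeongpung-san. ATP6V0D1 (chr16:67481108-67481407, minus strand) was lower with Soshiho-tang, and MCOLN1 (chr19:7522374-7522673, plus strand) was called in no comparison of the joint fit.
GAA: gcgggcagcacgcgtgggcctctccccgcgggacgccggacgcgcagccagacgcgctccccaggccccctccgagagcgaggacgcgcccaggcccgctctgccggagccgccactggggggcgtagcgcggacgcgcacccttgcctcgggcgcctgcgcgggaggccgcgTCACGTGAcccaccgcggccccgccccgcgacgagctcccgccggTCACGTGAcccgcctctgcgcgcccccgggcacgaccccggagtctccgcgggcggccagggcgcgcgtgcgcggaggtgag
CTSD: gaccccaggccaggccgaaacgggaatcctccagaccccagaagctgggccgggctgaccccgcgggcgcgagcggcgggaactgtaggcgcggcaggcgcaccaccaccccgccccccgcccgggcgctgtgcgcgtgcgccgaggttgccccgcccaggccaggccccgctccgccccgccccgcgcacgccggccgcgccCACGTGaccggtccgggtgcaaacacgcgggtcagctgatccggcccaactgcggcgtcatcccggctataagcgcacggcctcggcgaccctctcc
ATP6V0D1: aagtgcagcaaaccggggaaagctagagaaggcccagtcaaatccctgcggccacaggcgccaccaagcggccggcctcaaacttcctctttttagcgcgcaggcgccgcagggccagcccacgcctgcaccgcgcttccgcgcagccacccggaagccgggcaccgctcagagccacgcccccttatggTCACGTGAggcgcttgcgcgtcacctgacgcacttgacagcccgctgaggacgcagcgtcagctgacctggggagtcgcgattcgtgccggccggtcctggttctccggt
MCOLN1: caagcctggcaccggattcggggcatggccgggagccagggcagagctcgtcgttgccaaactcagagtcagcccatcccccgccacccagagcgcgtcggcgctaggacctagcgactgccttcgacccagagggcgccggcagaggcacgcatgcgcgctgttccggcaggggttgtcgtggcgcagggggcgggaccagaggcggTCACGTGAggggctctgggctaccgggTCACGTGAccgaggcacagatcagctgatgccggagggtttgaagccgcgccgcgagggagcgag
GAA and MCOLN1 each hold the extended form in 2 places, ATP6V0D1 holds it once, and CTSD holds the core alone. With Soshiho-tang at 500 over 20 µg/mL, GAA was higher, ATP6V0D1 lower, and MCOLN1 and CTSD not called. SQSTM1, CTSL and MAP1LC3B have entries in the table and were not among the 8 members with a match.

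Overlapping genes limit some of the levels. In GENCODE release 29 (GRCh38) 22 members overlap another annotated gene, 18 of them a gene on the opposite strand. SQSTM1 overlaps MGAT4B and MRNIP, GLA overlaps RPL36A-HNRNPH2, and LIPA overlaps genes of the IFIT family in this way. The library kit keeps strand, per the labels, but the strand setting of the counting is not given in the sources used here, so reads of such pairs may not have been told apart.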

How the data were processed

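The authors deposited expected counts per gene for 30 libraries of A549 cells, estimated per sample, and these were the values used here; 30 further columns of the table were empty and left out. The submitters' processing notes name RSEM 1.3.3, STAR 2.7.3a, Trim Galore 0.6.5, FastQC 0.11.9 and the build hg38/GRCh38; the gene annotation release and the strand setting are not given in the sources used here. Per the labels, libraries came from a strand-keeping mRNA kit and were read as paired ends. From 9.09% to 11.6% of a library's values were not whole, and all were rounded. Libraries held 19833106 to 38008449 counts, which set the precision of low genes such as TFEB.

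Rounded counts of 27 libraries in 10 groups were fitted together with edgeR 4.0.16 (TMM scaling, filterByExpr, quasi-likelihood F test; R 4.3.3), and p-values were adjusted by Benjamini-Hochberg over 17459 genes, with a threshold of 0.05. SE was taken from the size of the log2 fold change over the root of its F statistic. CPM uses TMM-adjusted totals. Soyo-san, with 1 library per dose, was left out of the fit and described on log2(CPM + 0.5). TPM was computed from the rounded counts and the median transcript length per gene in GENCODE 29. Alternatives were size factors of DESeq2, its Wald test (DESeq2 1.42.0), other filters, only the groups compared, the replicate number as a block, mitochondrial genes left out, a length and GC offset, and each library left out. The members and gene lists were chosen with earlier results of these data known. Values per library are given for TFEB and TFE3, and for members called the same way at 500 µg/mL over both vehicle and 20 µg/mL. Outside that rule, and chosen after their values were seen, are CD63, GLA, GABARAPL1, WIPI1 and UVRAG, and NEU1 in Soyo-san. So are values of SQSTM1, CTSL, CTSD, LAMP2, ASAH1 and ATP6V0D1 in extracts where they were not called both ways, and of FLCN. Of each further list up to 3 genes with the largest change with dose are named per extract.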

Additional observations from a re-analysis of the deposited data

Results flagged for a closer look

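Between Soshiho-tang and Yijin-tang, 4 members differed in their 500 over 20 µg/mL change by a test of the difference itself. The log2 change was larger in Soshiho-tang by 0.43 for CTSL, by 0.42 for SQSTM1, by 0.31 for ASAH1 and by 0.28 for MAP1LC3B. ASAH1 and MAP1LC3B were not called with no filter on low counts. No search for single libraries far from the others of their group was made, since it needs groups of 4 or more.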

How the results depend on the processing

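No call of a member turned round under any alternative. Some members not called before were then called lower, and not all of these calls are given above. Of 112 calls in the 15 comparisons, 5 were lost with the size factors of DESeq2 and 16 without a filter on low counts. With at least 1 CPM in at least 3 libraries 0 were lost. The replicate block lost 0, leaving out mitochondrial genes 5, the length and GC offset 12 and the Wald test of DESeq2 2. When only the groups compared entered the fit 34 were lost, and fewer libraries were left to estimate the spread. Members called over vehicle moved from 8 to 13 for Yijin-tang at 500 µg/mL and from 4 to 7 for Soshiho-tang at 20 µg/mL with the length and GC offset. With only the groups compared they were 3 for Okbyeongpung-san at 500, 15 at 100 and 11 at 20 µg/mL, 7 for Soshiho-tang at 20 and 4 for Yijin-tang at 20 µg/mL. Soshiho-tang at 100 µg/mL had 4 with the size factors of DESeq2 and 4 without a filter. Okbyeongpung-san at 100 µg/mL had 5 without a filter, 5 with the length and GC offset, 5 with the Wald test and 5 with the replicate block, and at 20 µg/mL 5 with the Wald test and 5 with the block. Yijin-tang at 500 over 20 µg/mL had 2 with the offset, 2 with the Wald test and 0 with only the groups compared, which also gave 0 for Okbyeongpung-san at 500 over 20 µg/mL and 0 for Soshiho-tang against Okbyeongpung-san; the difference of dose effects had 2 without a filter. The cause of these changes in count was not tested. Same-numbered libraries did not deviate together in every pair (r from -0.15 to 0.16), so the numbers are not taken as pairs; the block gave 11, 1 and 4 for 500 over 20 µg/mL in Soshiho-tang, Yijin-tang and Okbyeongpung-san, as without it. Leaving out 1 library gave these ranges over vehicle: 14 to 18, 5 to 7 and 5 to 15 for Soshiho-tang, Yijin-tang and Okbyeongpung-san at 500 µg/mL, 1 to 4, 2 to 8 and 0 to 1 at 100 µg/mL, and 1 to 4, 1 to 11 and 0 to 2 at 20 µg/mL. For 500 over 20 µg/mL they were 8 to 9, 0 to 1 and 1 to 11, for Soshiho-tang against Yijin-tang 6 to 7, against Okbyeongpung-san 6 to 15, and for the difference of dose effects 3 to 5. TFEB and WIPI1 have the fewest counts (55 to 152 and 104 to 262 per library), where depth limits what can be shown.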
